A study of Mus musculus with 24 samples.

Results

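Malat1 and Neat1 are long noncoding RNAs (lncRNAs) of the nucleus, and their reads were followed through a set of vesicle preparations from the mouse epididymis. Members were all lncRNA references whose gene name in GENCODE M21, a mouse gene annotation on the GRCm38 genome, is Malat1 or Neat1. That gave 8 transcripts, 4 of each gene, of 9500 lncRNA references, or 2 of 6393 lncRNA genes. The 8 are all the transcripts that the annotation lists for these genes. Both genes had reads in all 24 libraries, at similar totals: Malat1 with 39894 reads and Neat1 with 37788.

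The libraries were made from cauda epididymosomes, extracellular vesicles of the storage segment of the epididymis, of male C57BL/6J mice aged 7 to 8 weeks when treatment began. Implanted osmotic pumps delivered for 6 weeks DBP (dibutyl phthalate) at 2.5 mg/kg/day, DEHP (di(2-ethylhexyl) phthalate) at 2.5 mg/kg/day, a mixture of both at 2.5 mg/kg/day each, or the vehicle, 50% DMSO, as the control. Each group had 6 mice and 6 libraries, and libraries 1 to 3 of every group were sequenced on lane 6 and libraries 4 to 6 on lane 7. Sperm were pelleted at low speed, vesicles and their RNA were isolated from the frozen supernatant with an exoRNAeasy kit, and small RNA libraries were sequenced, so each read is a short fragment of a long transcript.

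Malat1 gathers in nuclear speckles, where splicing factors are stored, and Neat1 is the scaffold around which paraspeckles form. Both are known as nuclear-retained RNAs, made from neighbouring genes. The longest form of each lacks a poly(A) tail: its 3′ end is cut by RNase P and folded into a triple helix of U-rich motifs and an A-rich tract. Neat1 is also made as a short form that shares the start of the long one.

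Malat1 lies on chromosome 19 at 5795690 to 5802672 of GRCm38, on the minus strand, and is annotated as a lincRNA. Neat1 lies on the same strand at 5824708 to 5845478, with 22036 bases between them, and no other gene of the lncRNA tables lies within 100 kb of either. Malat1-201 (ENSMUST00000172812.2, 6983 bases) and Neat1-201 (ENSMUST00000173672.1, 20771 bases) are single exons that span their genes. Their 3′ elements are shown because they mark the ends at which both RNAs do without a poly(A) tail. Capitals mark every stretch of 10 or more bases that the last 400 bases of Malat1-201 share with the last 100 of Neat1-201, and T stands for U, as in the GENCODE transcript file.
Malat1-201: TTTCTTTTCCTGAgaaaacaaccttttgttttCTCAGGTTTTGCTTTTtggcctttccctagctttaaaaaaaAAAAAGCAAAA
Neat1-201: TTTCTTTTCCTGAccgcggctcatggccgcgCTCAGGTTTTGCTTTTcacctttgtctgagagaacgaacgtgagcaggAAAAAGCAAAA

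The shared stretches were TTTCTTTTCCTGA and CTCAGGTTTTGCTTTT, which hold the U-rich motifs, and AAAAAGCAAAA, the end of the A-rich tract, in the same order in both. The Malat1 element runs from base 6608 to 6691 of the transcript (chr19:5795982-5796065, minus strand), and 292 further bases follow it in Malat1-201. The Neat1 element runs from base 20682 to the last base of Neat1-201 (chr19:5824708-5824797, minus strand). Of 9128 lncRNA references with a sequence, TTTCTTTTCCTGA was in 2 (0.0219%) on the transcript strand and in 6 (0.0657%) on either strand. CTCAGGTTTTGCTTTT was in 2 (0.0219%) on either strand, and AAAAAGCAAAA in 25 (0.274%) on the transcript strand and 55 (0.603%) on either. The stretches were taken from these 2 transcripts, so these counts are a description. Outside this element the longest stretch the long transcripts had in common was 29 bases, at base 603 of Malat1-201 and base 11252 of Neat1-201, and 22 lncRNA references held it on either strand.

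The other 6 transcripts are spliced and are nearly contained in the long ones. The share of their 25-base words found in the long transcript was 96.4% for Malat1-202, 95.7% for Malat1-203, 96.8% for Malat1-204, 99.2% for Neat1-202, 93.2% for Neat1-203 and 93.2% for Neat1-204. Reads from the shared bases fit more than 1 reference, and the sources used here do not state how such reads were counted. The exon junctions set the short transcripts apart from the long ones. The junctions of the best-read short transcript of each gene are printed with the 15 bases before the junction in lower case and the 15 after it in capitals. Neither 30-base run occurs in the long transcript of its gene, but the Neat1 run is also a junction of Neat1-203, so it does not tell Neat1-202 and Neat1-203 apart.
Malat1-203 junction: tagtttgaaaatgagGTTAGGCTAGTATTT
Neat1-202 and Neat1-203 junction: ctctggcccagggtgATAGCAGTGCCCTCT

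Depth was 7.94 to 14.7 M reads per library (M stands for 1e6) over the 6 RNA classes that the authors mapped in turn (miRNA, tRNA fragments, piRNA, rRNA, circRNA, lncRNA). The lncRNA class took 0.652% to 1.09% of them, 59764 to 124512 reads. Libraries 5 and 6 of every group were known from earlier results of these data to have a profile of their own, and the gene-level differences that turned direction without them are given both ways. The miRNA markers of erythrocytes, leukocytes, germ cells and epithelium had fewer reads than those of smooth muscle. No level was set below which a cell type would count as absent. Summed over the list, 3 of 5 erythrocyte miRNAs with reads gave 0 to 0.293 reads per 1e6 reads of the 6 classes (RPM) in DBP, 0 to 0.271 in DEHP, 0 to 0.294 in mixture and 0 to 0.405 in control libraries, with miR-451a and miR-144-3p at 0. Leukocyte miRNAs gave 0.182 to 1.42, 0.333 to 1.17, 0.211 to 0.703 and 0.101 to 0.855 RPM in the DBP, DEHP, mixture and control libraries, with 4 of 5 having reads and miR-155-5p at 0. All 6 germ cell miRNAs had reads but gave at most 0.508, 0.452, 0.587 and 0.933 RPM in the same order of groups, and all 5 epithelial miRNAs of the miR-200 family at most 0.884, 2.26, 0.978 and 1.17 RPM. All 4 smooth muscle miRNAs had reads, with 6.24 to 33.9 RPM in DBP, 6.45 to 34.8 in DEHP, 4.98 to 28.1 in mixture and 10.4 to 28.2 in control libraries. The part of such cells, and of RNA outside vesicles, in the reads on Malat1 and Neat1 was not tested.

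Malat1 and Neat1 were among the best-read lncRNA genes. Malat1 held 1.86% of all lncRNA reads and ranked 5 of 6393 genes, and Neat1 held 1.76% and ranked 6. In single libraries each ranked between 5 and 10. Per kilobase of the longest transcript, Malat1 had 5713 reads over the 24 libraries and ranked 16, between 10 and 20 in single libraries. Neat1, with its far longer transcript, had 1819 reads per kilobase and ranked 36, between 24 and 52 in single libraries. The median lncRNA gene with reads had 72.9 reads per kilobase, and 95% of them had under 290.8.

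**Figure D1:**
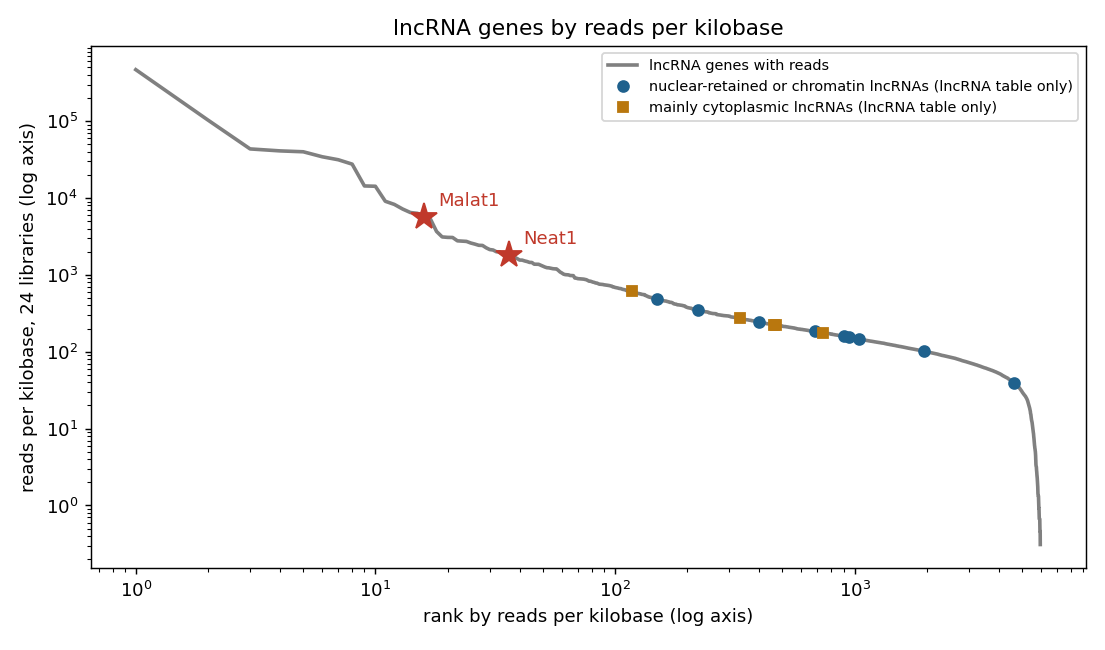
lncRNA genes ordered by reads per kilobase summed over the 24 libraries (both axes logarithmic). Malat1 and Neat1 (stars) stand at ranks 16 and 36, above the listed nuclear (circles) and cytoplasmic (squares) lncRNAs drawn here, which are those counted in the lncRNA table alone.

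On the scale of reads per kilobase and per 1e6 reads (RPKM), Malat1 averaged 21.1 ± 3.53 and Neat1 6.72 ± 1.34 (SD, n = 24 libraries). The lowest library of Malat1, at 13.7, was above the highest of Neat1, at 9.92. Next to Malat1 in the order stood Gm48226 at 23.3 ± 8.98 and AC122252.2 at 19.7 ± 10.7, and next to Neat1 stood 4930571K23Rik at 6.71 ± 2.41 and Mir9-3hg at 6.72 ± 1.98 (SD, n = 24 each). None of these neighbours was separated from Malat1 or Neat1 by more than its spread. The 3 lncRNA genes with most reads per kilobase were AC121821.1 at 1746 ± 1044, 2310014F06Rik at 388 ± 224 and Gm10505 at 164 ± 38.5 RPKM.

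Almost all Malat1 reads of the lncRNA class were on the long transcript. Malat1-201 took 39116 reads, 98.05% of the gene, with 975 to 2539 per library and a median of 1557. Malat1-203, a spliced transcript at the 5′ end, had 622 reads, 5 to 37 per library. Malat1-204 and Malat1-202, spliced transcripts at the 3′ end, had 130 and 26 reads and were at 0 in 1 and 10 of the 24 libraries. Per kilobase the order was 5602 reads for Malat1-201, 1282 for Malat1-203, 198 for Malat1-204 and 46.8 for Malat1-202. The circRNA class was searched before lncRNA and has entries over part of each transcript. This order is therefore of the reads left to the lncRNA class.

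Neat1 reads were spread more widely over its transcripts. Neat1-201 took 30488 reads, 80.7% of the gene, with 682 to 2074 per library and a median of 1202.5. Neat1-202, which covers the 5′ end of the gene, had 5086 reads (13.5%), 143 to 333 per library, and Neat1-203, also at the 5′ end, had 2081 (5.51%), 45 to 145 per library. Neat1-204, toward the 3′ end, had 133 reads (0.352%) and was at 0 in 1 library. Per kilobase Neat1-203 stood highest with 2020 reads, followed by Neat1-202 with 1693, Neat1-201 with 1468 and Neat1-204 with 187. The annotation also places 3 short misc_RNA genes inside the first 1193 bases of Neat1, and the separate otherRNA tables gave them 481 reads (Gm27505), 706 (Gm27533) and 647 (Gm28006). These came to 4373, 4645 and 5303 reads per kilobase, each above the 1468 of Neat1-201. Inside Malat1 the only such gene with an entry, Gm27694, had 86 reads, or 1000 per kilobase, below the 5602 of Malat1-201. The labels give otherRNA no place in the order of mapping, so it is not known which class was searched first on these stretches.

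More reads with the name of Malat1 lay in the circRNA tables than in the lncRNA tables. The circRNA class, searched before lncRNA, holds 41 entries with Malat1 as the host gene and none with Neat1. These 41 entries took 58295 reads, against 39894 on Malat1 in the lncRNA table. Their coordinates all fall inside the GRCm38 interval of the gene and cover 4880 of the 6983 bases of Malat1-201, or 69.9%. Of the short transcripts they cover more, 87.6% of Malat1-203, 84% of Malat1-204 and 82.9% of Malat1-202. The build of the circRNA coordinates is not named, and over all hosts with a known name only 19% of entries lay inside the GRCm38 interval of their host, 49.8% on chromosome 19, so positions along Malat1 rest on that match. Circular and linear Malat1 cannot be told apart from these tables, since counts of reads across the back-splice junction were not analysed here.

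**Figure D2:**
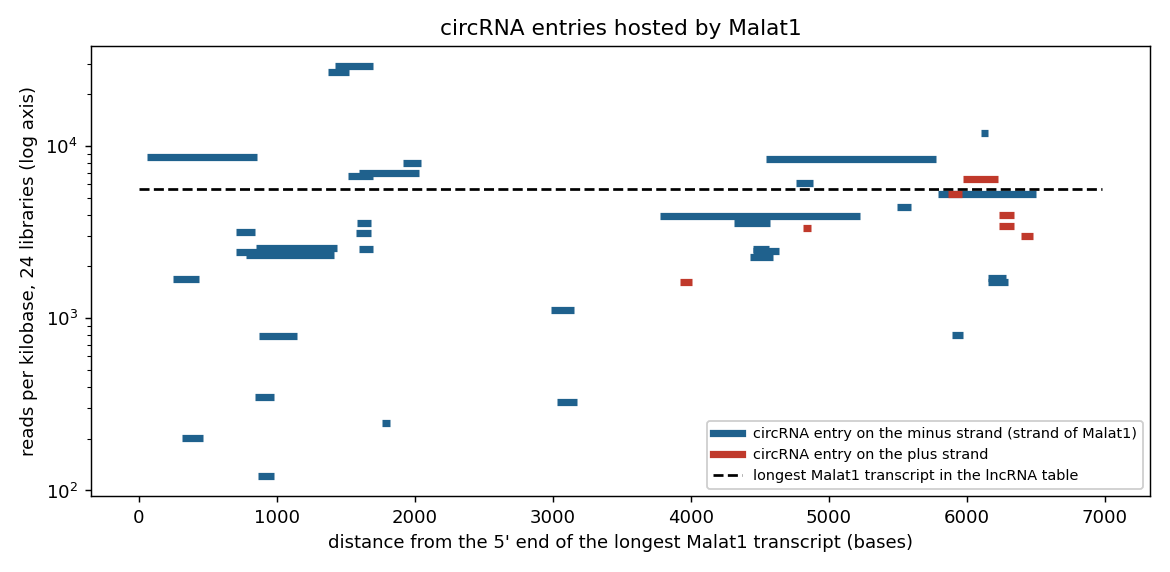
The 41 circRNA entries hosted by Malat1, drawn from their start to their end as distance from the 5′ end of Malat1-201 (bases), at their reads per kilobase over 24 libraries (log axis). Blue bars are the 34 entries on the minus strand, red bars the 7 on the plus strand, and the dashed line is Malat1-201 in the lncRNA table at 5602 reads per kilobase; 10 entries lie above it.

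The entries differed widely in reads. The most read, mmu_circ_0007941 (1228 bases), had 10349 reads, followed by mmu_circ_0007957 (279 bases) with 8090 and mmu_circ_0007967 (795 bases) with 6863. Per kilobase, 2 overlapping entries within bases 1369 to 1700 of Malat1-201 stood highest, mmu_circ_0007957 with 28996 reads and mmu_circ_0007960 with 26925. The entries ran from 122 to 28996 reads per kilobase with a median of 3131. As overlapping entries share sequence, their reads are not independent of each other.

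The split of Malat1 reads between the classes was steady. The circRNA entries took 59.4% ± 1.4 of Malat1 reads in both classes (SD, n = 24), with 56.9% the lowest and 61.7% the highest. By group this share was 59.8% ± 1.3 in DBP, 59.4% ± 1.59 in DEHP, 58.6% ± 1.32 in mixture and 59.7% ± 1.41 in control libraries (SD, n = 6 each). With both classes counted, Malat1 averaged 52.0 ± 8.47 RPKM, and there were 2.67 ± 0.569 Malat1 reads per Neat1 read against 1.08 ± 0.229 with the lncRNA table alone (SD, n = 24).

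The question of the design was whether exposure to either phthalate or to both changed the RNA of the vesicles, and for both lncRNAs the levels of the exposed and control groups overlapped. Malat1 in DBP libraries had a lowest value of 95.7, a median of 154 and a highest of 175 RPM. In DEHP libraries these were 122, 163 and 174 RPM, in mixture libraries 119, 141 and 173 RPM, and in control libraries 102, 141 and 193 RPM. The highest Malat1 value of all was in control library 1 and the lowest in DBP library 2, and the range of each exposed group overlapped the control range. Means were 148 ± 28.7 RPM for DBP, 153 ± 21.1 for DEHP, 143 ± 18.5 for mixture and 146 ± 33.4 for control (SD, n = 6 each). Without libraries 5 and 6 the mean difference of DBP from control was -9.29 RPM.

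Neat1 showed the same overlap. Its lowest, median and highest values were 119, 142 and 165 RPM in DBP libraries, 115, 132 and 206 RPM in DEHP libraries, 107, 119 and 146 RPM in mixture libraries, and 101, 136 and 192 RPM in control libraries. The mixture group had the narrowest range and its highest library was below the highest control libraries, yet it lay inside the control range. Means were 144 ± 18.5 RPM for DBP, 147 ± 37.4 for DEHP, 125 ± 16.2 for mixture and 142 ± 35.0 for control (SD, n = 6 each), and without libraries 5 and 6 the mean difference of DBP from control was -4.14 RPM. Counting error was smaller than this spread: the Wilson 95% interval was 89.9 to 102 RPM around the lowest Malat1 library, with 981 reads, and 198 to 215 RPM around the highest Neat1 library, with 2282 reads. These intervals cover counting error only.

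**Figure D3:**
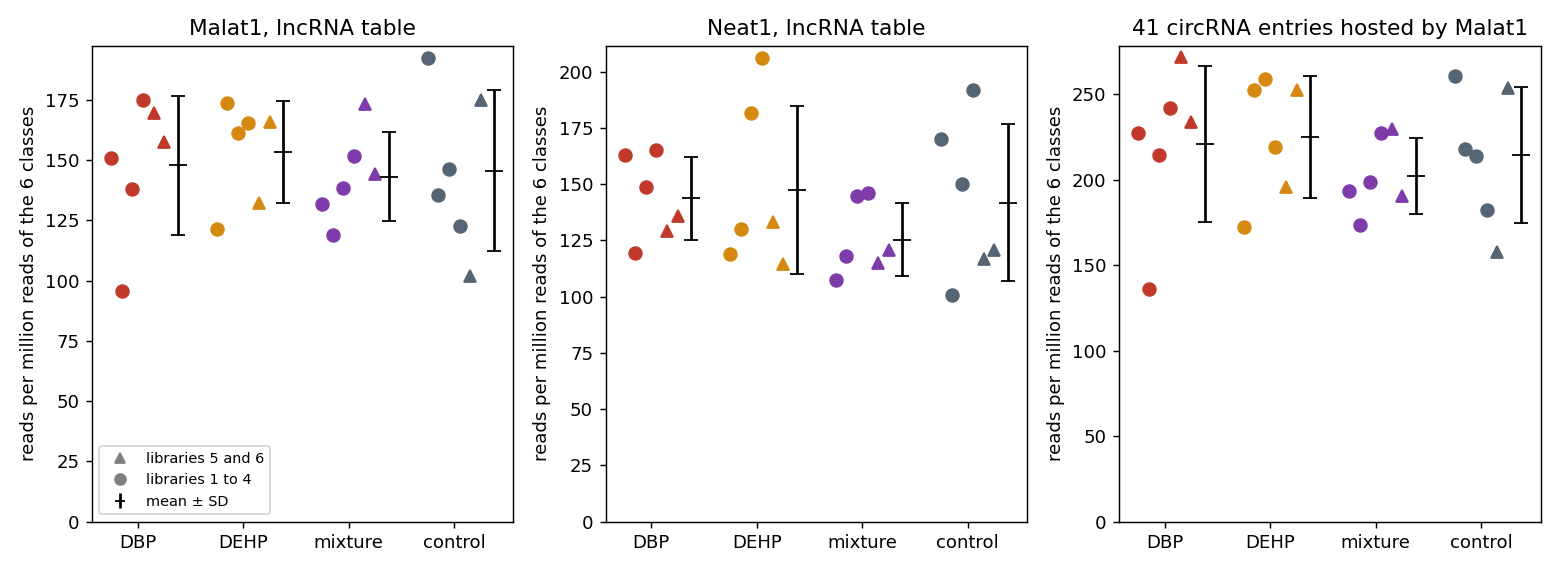
Reads per 1e6 reads of the 6 classes (RPM) in each library for Malat1, Neat1 and the 41 circRNA entries of Malat1, by group. Triangles are libraries 5 and 6, circles libraries 1 to 4, and black bars mean ± SD; the groups overlap in all 3 panels, with means of 148, 153, 143 and 146 RPM for Malat1 in DBP, DEHP, mixture and control libraries.

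In edgeR's quasi-likelihood fit over 7545 features, 0 of the 2 genes passed an adjusted p of 0.05 in any of 6 comparisons. The background for that rule was 0% of features in each comparison. At an unadjusted p under 0.05 the background was 4.97% for DBP, 2.88% for DEHP and 2.69% for mixture against control, and neither gene was among those features. The criterion of the labels, at least 1.5-fold with p under 0.01, was met by 0.716%, 0.384% and 0.437% of features in the same 3 comparisons and by neither gene.

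Malat1 differed from control by a log2 fold change of 0.074 (SE 0.155, 95% interval -0.25 to 0.39) for DBP, 0.029 (-0.29 to 0.35) for DEHP and -0.018 (-0.34 to 0.30) for mixture. The lowest of its adjusted p-values in edgeR was 0.989. The direction turned with single libraries. Without control library 5 or DBP library 4 the DBP value was -0.016 or -0.0050, without control libraries 2 or 5 or DEHP libraries 2 or 4 the DEHP value lay between -0.058 and -0.0022, and without control libraries 1 or 4 the mixture value was 0.053 or 0.017. All 6 intervals of Malat1 in this fit lay inside 1.5-fold in either direction. The median of all features was -0.0053, -0.020 and -0.024 in the comparisons with control, so Malat1 stood close to the middle of the table. With the circRNA entries added, the log2 fold changes of Malat1 were 0.083 (-0.24 to 0.40) for DBP, 0.022 (-0.30 to 0.34) for DEHP and -0.050 (-0.37 to 0.27) for mixture, an analysis chosen after the entries had been seen. Without libraries 5 and 6 this DEHP value was -0.0017.

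Neat1 differed from control by a log2 fold change of 0.047 (SE 0.238, 95% interval -0.45 to 0.54) for DBP, -0.027 (-0.52 to 0.46) for DEHP and -0.21 (-0.71 to 0.28) for mixture. The lowest of its adjusted p-values in edgeR was 0.999. The intervals for DBP and DEHP lay inside 1.5-fold, while that for mixture reached below it. Libraries of the control group decided part of this: without control library 4 the Neat1 value for mixture was 0.028, and for DBP and DEHP 0.28 and 0.22. Without control libraries 2, 5 or 6 or DBP libraries 1, 2 or 4 the DBP value lay between -0.062 and -0.0098. The DEHP value lay between 0.0047 and 0.076 without control library 3 or DEHP libraries 1, 2, 5 or 6, and was -0.24 without DEHP library 4.

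Between the exposed groups, 3 pairs were compared at matched time, with p-values adjusted over all 7545 features. DBP and DEHP, diesters of the same phthalic acid with shorter straight and longer branched side chains, were given at the same mass dose. The log2 fold change of DBP over DEHP was 0.045 (-0.27 to 0.36) for Malat1 and 0.074 (-0.42 to 0.57) for Neat1. Without libraries 5 and 6 the Malat1 value was -0.0030. Mixture differed from DBP by -0.092 (-0.41 to 0.23) for Malat1 and -0.26 (-0.75 to 0.23) for Neat1, and from DEHP by -0.047 (-0.37 to 0.27) and -0.19 (-0.68 to 0.30). DBP over DEHP was below 0 for Malat1 without DBP libraries 1 or 4 or DEHP library 5 (lowest -0.041) and for Neat1 without DBP libraries 1 or 2 or DEHP library 6 (lowest -0.026), and without DEHP library 4 mixture over DEHP was 0.041 for Malat1 and 0.023 for Neat1. Adjusted p-values of edgeR were 0.999 or above in all of these, with a background of 0% called. At an unadjusted p under 0.05 the background was 3.62% for DBP against DEHP, 3.98% for mixture against DBP and 3.07% for mixture against DEHP, and the labels' criterion was met by 0.477%, 0.596% and 0.543%; neither gene was among them. The mixture brought each compound at 2.5 mg/kg/day, so its summed dose differed from that of either compound alone. The interaction of the 2 compounds (mixture and control minus DBP and DEHP) was -0.12 (-0.57 to 0.33) for Malat1 and -0.24 (-0.93 to 0.46) for Neat1, with adjusted p-values in edgeR of 0.998 and 0.993 and 0% of features called.

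**Figure D4:**
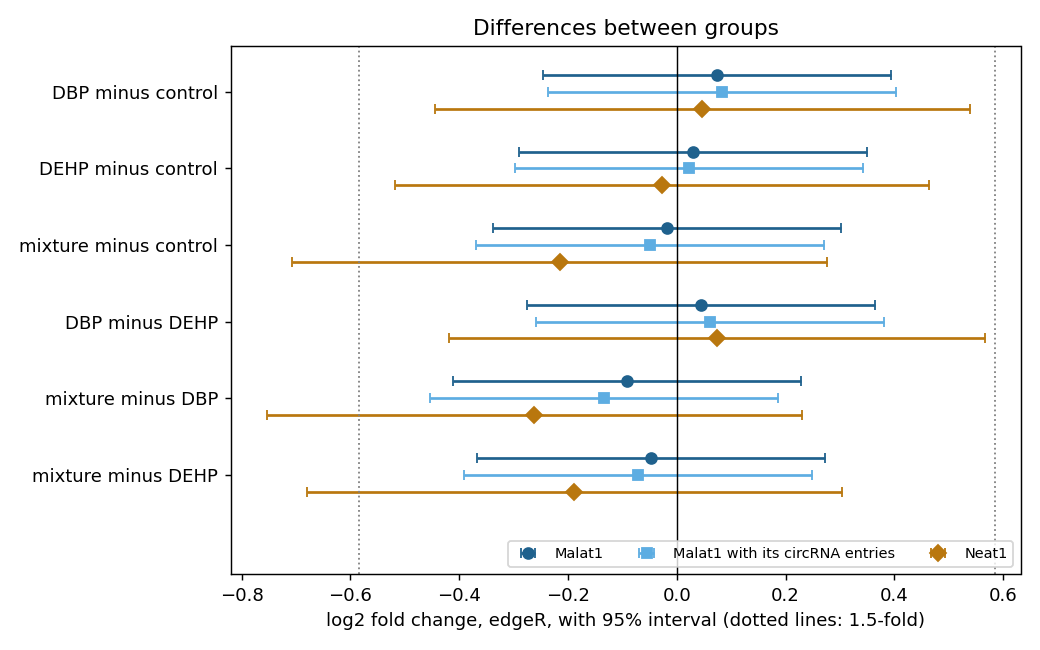
Log2 fold changes from edgeR with 95% intervals for Malat1 (circles), Malat1 with its circRNA entries (squares) and Neat1 (diamonds) in 6 comparisons; the first group named is on top of the fold. Dotted lines mark 1.5-fold: all Malat1 intervals lie between them, and the 3 Neat1 intervals of the mixture cross the lower line.

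Single transcripts and entries gave no call at an adjusted p of 0.05 either. Of the 8 transcripts, 5 had enough reads to be fitted, and their log2 fold changes against control ran from -0.28 (Neat1-202 in mixture) to 0.29 (Neat1-203 in DBP), with 0 called. Of the 41 circRNA entries, 34 were fitted. In DBP against control 25 of the 34 values were above 0 and 9 below, with a median of 0.17, 1 entry at an unadjusted p under 0.05 where the background of circRNAs was 3.37%, and 0 with an adjusted p under 0.05, where 0% of circRNAs had one. The medians were -0.0078 for DEHP and -0.098 for mixture, with 0 entries at an unadjusted p under 0.05 where the backgrounds were 2.75% and 2.69%. Between exposed groups, 23 of 34 values were above 0 for DBP over DEHP (median 0.12). Below 0 were 28 of 34 for mixture over DBP (median -0.19) and 26 of 34 for mixture over DEHP (median -0.083). The medians of all features were 0.0175, -0.016 and -0.0032 in the same order. Overlapping entries share sequence, so such counts are not of independent values. Entries at an unadjusted p under 0.05 were 2, 4 and 2 in these 3 comparisons, where the backgrounds were 3.62%, 3.98% and 3.70%, and 0 had an adjusted p under 0.05. By the labels' criterion 1 entry passed, in mixture over DEHP, where 0.673% of circRNAs met it. That entry, mmu_circ_0000926 (59 bases, plus strand, 2 to 15 reads per library), had a log2 fold change of -0.86 (SE 0.298) with an adjusted p of 0.9997 in edgeR. No entry met the criterion in the other comparisons, where the backgrounds were 0.393% for DBP, 0.393% for DEHP and 0.477% for mixture against control, 0.561% for DBP over DEHP and 0.477% for mixture over DBP.

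Exact two-sided permutation tests, with labels exchanged within lane, covered RPM, the share of lncRNA reads and the number of Malat1 reads per Neat1 read in the 3 comparisons with control. The smallest of 15 p-values was 0.195, for the share of lncRNA reads on Neat1 in DBP (1.88% ± 0.31) against control (1.68% ± 0.263) libraries, higher than the control mean in 5 of 6 libraries (SD, n = 6 each, exact permutation). All 15 had an adjusted p of 0.935, where 0.005 is the smallest p that the 400 arrangements can give. Malat1 reads per Neat1 read averaged 1.03 ± 0.184 in DBP, 1.08 ± 0.254 in DEHP, 1.16 ± 0.203 in mixture and 1.07 ± 0.302 in control libraries (SD, n = 6 each), and without libraries 5 and 6 DEHP differed from control by -0.0103.

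Levels also differed between libraries 5 and 6 and the rest. Neat1 averaged 123 ± 8.38 RPM in libraries 5 and 6 (n = 8) and 148 ± 30.8 RPM in libraries 1 to 4 (n = 16), and in the 4 libraries numbered 4 alone 177 ± 26.9 RPM. In the same 2 sets Malat1 averaged 152 ± 25.2 and 145 ± 24.8 RPM. In the fit with a term for libraries 5 and 6 beside lane, that term sets them against the libraries numbered 4. Those are the only other libraries of lane 7. The log2 value of this term was -0.87 (SE 0.166) for Neat1 and -0.35 (SE 0.141) for Malat1 with TMM scaling. With plain library totals these were -0.52 and -0.0093, with the median of all features at 0.32 against -0.0096 under TMM. The 2 sets were chosen from earlier results of these data, so these values are a description. Mitochondrial rRNA was 1892 ± 905 RPM in libraries 5 and 6 against 494 ± 469 RPM in libraries 1 to 4, and small nuclear RNA 847 ± 192 against 506 ± 70.8 RPM. Their part in the Neat1 difference was not tested. Lanes were compared in the fit without a term for libraries 5 and 6. All of those libraries were on lane 7, so lane cannot be told apart from their profile here. In that fit 905 features (12%) were called between lanes. The log2 value of lane 7 over lane 6 with TMM scaling was -0.17 for Malat1 (adjusted p of edgeR 0.356) and -0.20 for Neat1 (adjusted p 0.50). The direction turned with scaling: in RPM, lane 7 was above lane 6 for Malat1 (153 ± 23.4 and 142 ± 25.7) and for Neat1 (141 ± 30.8 and 138 ± 25.8; SD, n = 12 each). The change of an exposure's difference from lane 6 to lane 7 was 0.20 for DBP, 0.21 for DEHP and 0.24 for mixture in Malat1, and -0.55, -0.043 and -0.32 in Neat1, with adjusted p-values in edgeR of 0.885 or above where 0.0265%, 0% and 0% of features were called.

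Over all 24 libraries, which fall into those 2 sets, Pearson's r of Malat1 and Neat1 RPM was 0.30 (permutation p 0.156, Benjamini-Hochberg 0.26 over 5 relations) and Spearman's rho 0.32 (permutation p 0.126). Without the 2 libraries farthest from the Malat1 median, DBP library 2 and control library 5, this r was 0.20. Over libraries 5 and 6 (n = 8) Pearson's r of their RPM was -0.017 (permutation p 0.968) and Spearman's rho -0.14 (permutation p 0.752). Over libraries 1 to 4 (n = 16) r was 0.50 (permutation p 0.0485, Benjamini-Hochberg 0.242 over 5 relations) and rho 0.58 (permutation p 0.0195). Without the 2 libraries farthest from the Malat1 median, control library 1 and DBP library 2, the r of libraries 1 to 4 was 0.43. Within lane 6 r was 0.64 (permutation p 0.0243, adjusted 0.122) and within lane 7 it was -0.021 (permutation p 0.952), each over 12 libraries. The sets and lanes were not tested against each other. Mitochondrial rRNA had an r of 0.41 with Malat1 (permutation p 0.0464, adjusted 0.116; rho 0.55, permutation p 0.00666) and of -0.45 with Neat1 (permutation p 0.0256, adjusted 0.116; rho -0.32, permutation p 0.124) over 24 libraries. Within lane 7 these r were 0.42 (permutation p 0.179, adjusted 0.298) and -0.69 (permutation p 0.0142, adjusted 0.071), and within lane 6 they were 0.32 and -0.33 (permutation p 0.302 and 0.305). Over libraries 5 and 6 they were 0.60 and -0.55 (permutation p 0.117 and 0.154), and over libraries 1 to 4 they were 0.37 and -0.26 (permutation p 0.157 and 0.341), where rho was 0.62 for Malat1 (permutation p 0.0125). Without the 2 libraries farthest from the median of mitochondrial rRNA, mixture library 5 and control library 6, the r over 24 libraries were 0.27 and -0.41. Within lane 6 and over libraries 1 to 4, the 2 farthest were control library 2 and DEHP library 2. Without them the r with Neat1 turned to 0.53 and 0.36, and the r with Malat1 were 0.75 and 0.66. With all libraries of these sets, the rho with Neat1 were 0.021 and 0.056. For Pearson's r of small nuclear RNA with either gene, adjusted permutation p-values were 0.199 or above in each set and lane, the lowest with Neat1 in lane 7 (r -0.53, rho -0.61, permutation p 0.0797 and 0.040).

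**Figure D5:**
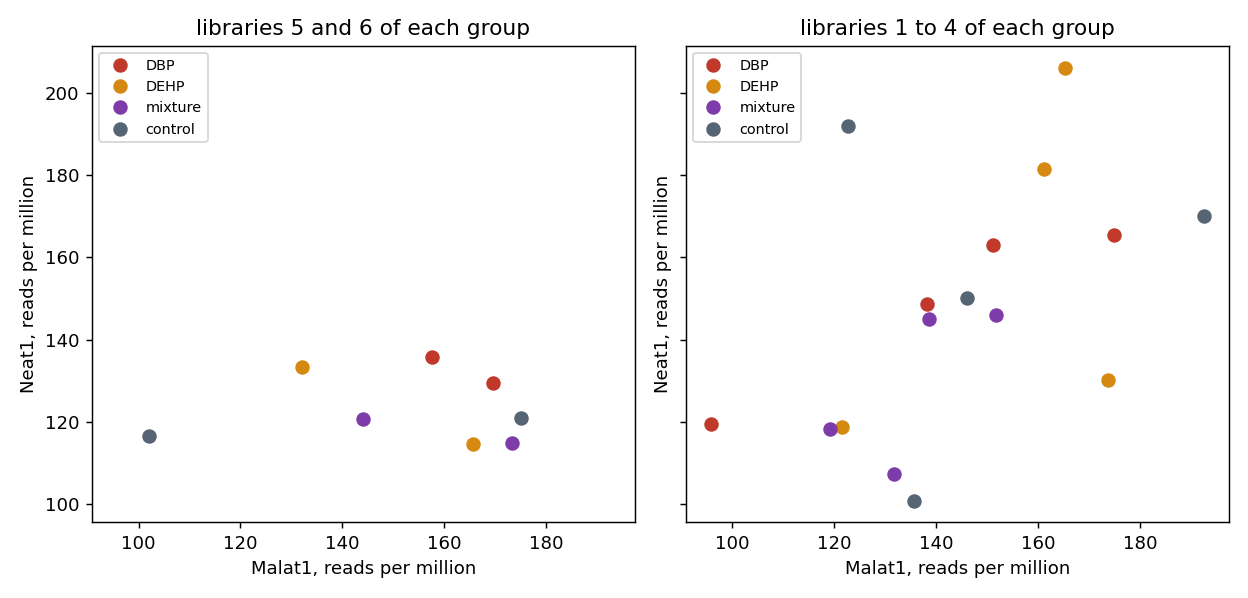
Neat1 against Malat1 in RPM, left for libraries 5 and 6 of each group and right for libraries 1 to 4, coloured by group. Pearson's r is -0.017 on the left (n = 8) and 0.50 on the right (n = 16).

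Likeness across libraries was measured as Pearson's correlation of log2 CPM (counts per 1e6 reads) over the 24 libraries, which share lane and the profile of libraries 5 and 6. The most like Malat1 were 4930588K23Rik (0.80), Gm30790 (0.77) and Gm35281 (0.77), and Neat1 came 14th of 1298 lncRNA genes with 0.62. The most like Neat1 were Gm2453 (0.87), Gm19792 (0.86) and AC121821.1 (0.84), and Malat1 came 56th. The median over lncRNA genes was 0.099 for Malat1 and 0.11 for Neat1. The likeness of Malat1 and Neat1 to each other was 0.41 over libraries 1 to 4. After group means, lane and a term for libraries 5 and 6 were taken out, it was 0.063 over the 24 libraries. The 3 genes named for Malat1, in the same order, were at 0.55, 0.63 and 0.63 over libraries 1 to 4. With those terms taken out they were at 0.64, 0.54 and 0.47. The 3 named for Neat1 were at 0.79, 0.74 and 0.53, and at 0.80, 0.83 and 0.66. All were picked as the highest of 1298 genes in these same libraries.

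Other RNAs with a known place in the cell set the scale for these levels. Of 17 listed nuclear-retained or chromatin lncRNAs, 16 were found in the lncRNA or otherRNA tables and all 16 had reads, 58254 together, while Malat1 and Neat1 had 77682. The best read were Kcnq1ot1, the antisense lncRNA of an imprinted domain, with 1.44 ± 0.349 RPKM, Meg3, another imprinted lncRNA, with 1.29 ± 0.218, and Snhg14, the host transcript of imprinted snoRNAs, with 2.56 ± 0.75 (SD, n = 24 each). Each was below the 6.72 ± 1.34 of Neat1 and the 21.1 ± 3.53 of Malat1 on this scale. Kcnq1ot1 was divided by a length of 93.1 kb, and its 36306 reads came to 134 ± 32.5 RPM. Without allowance for length it was thus close to Neat1, at 140 ± 27.9 RPM. Xist, the lncRNA that coats an inactive X chromosome, had 0.147 ± 0.04 RPKM. Of 14 mainly cytoplasmic lncRNAs, 11 were found, led by the snoRNA hosts Snhg1 with 30.8 ± 22.4, Gas5 with 13.9 ± 9.85 and Snhg3 with 27.9 ± 26.8 RPKM over the lncRNA and otherRNA tables together. In the lncRNA table alone, the one that holds Malat1 and Neat1, Snhg1 had 0.631 ± 0.423 and Gas5 2.30 ± 0.899 RPKM, while Snhg3 was counted in otherRNA. In these 3, reads on the snoRNAs in their introns cannot be told apart from reads on the host.

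Small nuclear RNAs were present too. RNase P RNA (Rpph1), the enzyme part that cuts the 3′ ends of both lncRNAs, had 765 ± 238 RPKM, RNase MRP RNA (Rmrp) 579 ± 496 and the transcription regulator Rn7sk 451 ± 137 (SD, n = 24 each). Summed over their lists, snoRNAs gave 1476 ± 708 RPM, snRNAs with Gm names 582 ± 174 RPM, snRNAs with Rnu names 38.2 ± 31.5 RPM and scaRNAs of Cajal bodies 80.9 ± 40.3 RPM. The leading snoRNAs were Snord15b at 554 ± 142, Rnu3a at 363 ± 174 and Snord118 at 487 ± 216 RPKM. Cytoplasmic small RNAs gave 6686 ± 2036 RPM, led by the signal recognition particle RNAs Rn7s2 and Rn7s1 and the Y RNA Rny3. Malat1 at 147 ± 24.7 RPM and Neat1 at 140 ± 27.9 RPM were thus below these small RNA classes other than the Rnu names and scaRNAs, on a scale that does not allow for length.

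Of the 16 nuclear lncRNAs found, 9 were fitted and 0 were called in any of the 6 comparisons, where 0% of all features were called. In DBP against control 4 of the 9 had values above 0 and 5 below, with a median of -0.068 where the median of all features was -0.0053. In DEHP 5 were above and 4 below, with a median of 0.062 against -0.020 for all features, and in mixture 4 were above and 5 below, with a median of -0.065 against -0.024. Xist had the smallest unadjusted p in DBP, 0.00369, with a log2 fold change of 0.60 (SE 0.186) and an adjusted p of 0.936 in edgeR. It thus met the labels' criterion there, as did 0.716% of all features. Its other values were 0.19 for DEHP and 0.47 for mixture against control (unadjusted p of edgeR 0.317 and 0.0188). Between exposed groups they were 0.41 for DBP over DEHP (unadjusted p of edgeR 0.0386), -0.13 for mixture over DBP and 0.28 for mixture over DEHP. The 4 cytoplasmic lncRNAs fitted gave 0 calls and medians of 0.17 for DBP, -0.085 for DEHP and -0.11 for mixture against control.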

How the data were processed

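Values are counts as deposited by the authors: reads per reference sequence in 7 tables per library, 1 for each RNA class. Per the submitters' processing notes, adapters were trimmed with cutadapt, reads were aligned with STAR 2.7.6a and edgeR was used. Per the labels, 6 classes were mapped in turn with lncRNA last. The sources used here name no build, annotation, strand or way of counting reads with several matches. lncRNA identifiers were matched to GENCODE M21 (96.1% found) and summed per gene. The 6 classes were joined, kept by filterByExpr, scaled by TMM and fitted with edgeR 4.0.16 in R 4.3.3 with terms for group and lane over all 24 libraries, which left 7545 features, 1299 of them lncRNA genes, and a biological coefficient of variation of 34.3%. Log2 fold changes are on the log2 scale of TMM-adjusted counts. Adjusted p-values are Benjamini-Hochberg over these features. The fit was tested on simulated data: for DBP minus control over 7193 features it called 8.51% of genes changed 1.5-fold, 32.7% at 2-fold and 87.2% at 3-fold. Permutations and intervals used scipy 1.17.1. RPM are reads per 1e6 reads of the plain total of the 6 classes. The rows naming no feature held 0 reads. Replicate numbers were not taken to pair the libraries, since 28 of 36 correlations between same-numbered libraries, not all, were over 0.1 (range -0.252 to 0.632, median 0.27). Limma 3.58.1 and DESeq2 1.42.0 were alternatives. Named were all transcripts of both genes, the 3 leading genes per list and per kilobase, neighbours in rank, and the 3 most correlated lncRNA genes per member; Xist and single circRNA entries were named after their values were seen. Members and lists were chosen with earlier results of these data known.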

Additional observations from a re-analysis of the deposited data

Results flagged for a closer look

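In the DEHP group, library 6 stood apart from its group in the share of lncRNA reads on Malat1: 2.202% (Wilson 95% interval 2.09% to 2.32%, 1316 of 59764 reads), where the other 5 libraries lay between 1.72% and 1.86%. In the mixture group, library 1 stood apart in the share of lncRNA reads on Neat1: 1.467% (1.39% to 1.55%, 1220 of 83161 reads), where the others lay between 1.63% and 1.73%. Both were found with Dixon's criterion at 0.625 for 6 samples, which chance meets in about 1 of 20 groups; here it was met in 2 of 32 groups.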

How the results depend on the processing

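None of 318 log2 fold changes of Malat1 and Neat1 under the alternatives had an adjusted p under 0.05 (lowest 0.7502), nor did any of 240 permuted values (lowest 0.35). Direction was not stable, as the values lie near 0. On lane 6 alone, Malat1 was -0.065 for DBP and -0.083 for DEHP against control. On lane 7 alone, Malat1 was 0.13 for mixture against control and 0.017 against DEHP, and Neat1 was -0.24 for DBP against control and -0.17 against DEHP. With library totals, Neat1 was 0.056 for DEHP against control, and for DBP against DEHP Malat1 was -0.0585 and Neat1 -0.037. Limma gave -0.040 for Malat1 in DEHP. Without libraries 5 and 6, Malat1 was -0.0030 for DBP against DEHP. With no filter on low counts, Malat1 was 0.041 for mixture against control and 0.0037 against DEHP, and features called were 47 for DBP, 6 for DEHP and 5 for mixture against control, 1 for DBP against DEHP, 19 for mixture against DBP and 3 against DEHP, in place of 0 in each. The cause was not tested.

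Among differences in RPM from control, Malat1 was -29.8 for DBP and -5.97 for DEHP on lane 6 alone, 23.2 for mixture on lane 7 alone, and -9.29 for DBP without libraries 5 and 6, where Neat1 was -4.14 for DBP. Malat1 reads per Neat1 read differed by 0.189 for DBP on lane 7 alone, by -0.068 for DEHP and -0.0861 for mixture on lane 6 alone, and by -0.0103 for DEHP without libraries 5 and 6. Shares of lncRNA reads on lane 6 alone differed by -0.154 (Malat1, DBP), -0.0642 (Malat1, mixture) and 0.0689 (Neat1, mixture) percentage points. Within a lane the smallest exact permutation p is 0.1.

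Leaving out 1 library at a time, 18 of 27 ranges crossed 0. Log2 fold changes against control ran from -0.016 to 0.14 (DBP), -0.058 to 0.10 (DEHP) and -0.10 to 0.053 (mixture) for Malat1, and from -0.062 to 0.28, -0.24 to 0.22 and -0.32 to 0.028 for Neat1. For DBP over DEHP they ran from -0.041 to 0.13 for Malat1 and -0.026 to 0.28 for Neat1, for mixture over DBP from -0.12 to -0.031 and -0.34 to -0.20, and for mixture over DEHP from -0.10 to 0.041 and -0.29 to 0.023. The RPM difference ran from -6.59 to 12.5 (DBP), -1.17 to 16.9 (DEHP) and -11.3 to 6.79 (mixture) for Malat1, and from -6.35 to 11.8, -6.09 to 15.7 and -24.6 to -6.44 for Neat1. Malat1 reads per Neat1 read ran from -0.124 to 0.0382, -0.0742 to 0.0877 and 0.0012 to 0.163, and the share of lncRNA reads from 0.0958 to 0.37, 0.0096 to 0.254 and 0.0217 to 0.297 for Malat1 and from 0.13 to 0.313, 0.0356 to 0.188 and -0.0878 to 0.0394 for Neat1. A control library set 33 of the 54 ends.

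With a replicate block in place of lane, 0 features were called in each comparison. Against control, Malat1 was 0.076 for DBP, 0.030 for DEHP and -0.0096 for mixture, and Neat1 was 0.10, -0.014 and -0.16. Signs exchanged within replicate number gave an adjusted p of 0.469 or above in 15 tests. The numbers are not shown to pair the libraries.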

Other observations

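The 7 circRNA entries of Malat1 on the plus strand, opposite to the gene, had 3683 reads, 6.32% of the reads on its 41 entries, and 1621 to 6433 reads per kilobase. The 34 entries on the minus strand had 54612 reads. A further 3 circRNA entries that overlap Malat1 under another host name had 3734 reads.

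Neat1-203, the short spliced transcript at the 5′ end of Neat1, took 6.90% ± 1.36 of Neat1 reads in libraries 5 and 6 (n = 8) and 5.03% ± 1.21 in libraries 1 to 4 (n = 16). Neat1-202 took 14.04% ± 2.75 and 13.4% ± 2.41 in the same sets.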
